A study of Macaca mulatta with 449 samples.

Results

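Perineuronal nets are sheets of extracellular matrix that wrap the cell body and proximal dendrites of some neurons, most densely those of fast-spiking interneurons that contain parvalbumin. Their backbone is hyaluronan, to which chondroitin sulphate proteoglycans of the lectican family bind. Link proteins lock that bond and tenascin-R cross-links the lecticans at their other end. Related matrix that uses the same families surrounds synapses, fills the space between cells and covers the nodes of Ranvier on myelinated axons. Expression of 9 net genes was examined: the lecticans aggrecan (ACAN), brevican (BCAN), neurocan (NCAN) and versican (VCAN), the link protein genes HAPLN1, HAPLN2, HAPLN3 and HAPLN4, and the tenascin-R gene TNR. They were chosen by symbol, and 7 of the 9 were found among the 30807 gene rows of the count table. These were ACAN (ENSMMUG00000000554), BCAN (ENSMMUG00000017093), VCAN (ENSMMUG00000011513), HAPLN1 (ENSMMUG00000011517), HAPLN3 (ENSMMUG00000000556), HAPLN4 (ENSMMUG00000008578) and TNR (ENSMMUG00000015723). For HAPLN1 the symbol came from the study's own supplementary list of gene names, whereas the reference table of gene IDs gave the other 6. NCAN and HAPLN2 matched no row by symbol and their expression was not analysed here. For NCAN, an assembled transcript that the study names NCAN lies on chromosome 19 of Mmul 8.0.1, from 19319257 to 19360007 on the plus strand, with 15 exons and 6005 exonic bases. PVALB (ENSMMUG00000008778), which encodes parvalbumin, was followed in the same samples.

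The samples were pieces of brain tissue from 8 rhesus macaques, dissected into 51 sub-regions per animal, each giving an RNA-seq library from ribosomal RNA-depleted RNA. The animals were named Rhesus 2, 3, 4, 6, 7, 8, 10 and 11 and bore no genetic change or treatment in the labels. The young group held 2 females (3.2 and 5 years) and 2 males (3.8 and 4 years), and the mid-aged group 2 females (9.8 and 10 years) and 2 males (10 and 10 years). The cerebral cortex made up 31 sub-regions in 5 lobes, and the other 20 sub-regions belonged to 15 region groups, such as the thalamus (THA), pons (PON), medulla oblongata (MO), amygdala (AMY), hippocampus (HIP), striatum (STR) and cerebellum (CB). In this grouping the entorhinal and perirhinal cortex formed a region group of its own, and it is counted among the 20 sub-regions outside the cortex. Libraries held 7784678 to 31083490 counts, with a median of 10698602. Levels are given as CPM (counts scaled to a common library size), mean ± SD over the 8 animals, and for a group of several sub-regions an animal's level is its mean over them. Overlap with the cortex thus refers to these means, and single cortical sub-regions could lie outside their range. No transcript lengths on the build of these counts were at hand, so levels are compared between places for 1 gene and never between genes. In RNA of whole tissue pieces, fewer cells of a type and less RNA per cell cannot be told apart. Replicates were separate animals, and an animal contributed to every sub-region.

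Counts set the precision for the scarcer genes. Over all libraries the median count was 1665 for BCAN, 1229 for HAPLN4, 309 for TNR, 286 for VCAN and 221 for HAPLN1, but 38 for ACAN and 25 for HAPLN3. Markers of some labelled tissues were checked. The pituitarium (PIT) libraries had PRL, the prolactin gene, at 25830 to 341800 CPM, and the corpus callosum (CC) libraries had the myelin gene MBP at 46530 to 59150 CPM. In the libraries labelled ventral tegmental area (VTA), tyrosine hydroxylase (TH), the marker of dopamine neurons, was at 14.7 to 326 CPM, against 766 to 1861 CPM in the substantia nigra (SN). PROX1, checked as the dentate gyrus marker, was at 13.7 to 67.4 CPM there. That overlapped the 4.66 to 24.5 CPM in the hippocampal field CA1. A few libraries stood apart. The MO library of Rhesus 6 had the neuronal gene SNAP25 at 109 CPM, where the other MO libraries began at 1723 CPM. The hypothalamus (HTHA) library of Rhesus 6 had the vesicular glutamate transporter gene SLC17A7, abundant in cortical neurons, at 472 CPM, against at most 4.94 CPM in the other 7. In the dentate gyrus (DG), the HAPLN4 level of Rhesus 2 was 137 CPM, whereas the other 7 animals were at 7.80 to 13.7 CPM. Differences called in MO, HTHA and DG are also given without these libraries.

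HAPLN4, a link protein found in nets of the brainstem and cerebellum, had the widest range of the family among neural tissues. In THA the lowest, median and highest animals were at 342, 402 and 484 CPM, while the cortex was at 98.7, 132 and 179 CPM. THA was the highest region group in 8 of 8 animals, and no thalamic value overlapped the animals' cortical means. HAPLN4 was thus 2.93-fold higher in THA (401 ± 49.2 against 138 ± 24.4 CPM, n = 8; log2 fold change 1.55 ± 0.27 SE, edgeR adjusted p = 3.85e-07). PON followed with 244, 326 and 404 CPM at the lowest, median and highest, again without overlap with the animals' cortical means (log2 fold change 1.25 ± 0.27 SE, edgeR adjusted p = 2.32e-05). Single cortical sub-regions reached that range, and the inferior postcentral gyrus averaged 249 CPM. SN (204 ± 65 CPM), VTA (153 ± 29.2 CPM) and MO (143 ± 66.2 CPM) overlapped the cortex and were not called. With the middle frontal gyrus in place of the whole cortex, HAPLN4 in SN was called higher (log2 fold change 1.38). The MO mean included the 3.74 CPM of Rhesus 6. Without that library the log2 difference of HAPLN4 in MO from the cortex moved from 0.08 to 0.28 and remained uncalled.

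At the other end, HAPLN4 was lowest in PIT (2.71 ± 2.43 CPM), CC (10.1 ± 7.71 CPM) and the olfactory bulb (OB, 13.2 ± 3.58 CPM). In AMY it ranged from 17.3 to 31.6 CPM over the 8 animals, below every animal's mean over the cortex (26.2 ± 5.64 CPM; log2 fold change -2.39 ± 0.28 SE, edgeR adjusted p = 5.54e-12). Single cortical sub-regions could be as low, and the temporal polar gyrus averaged 20.0 CPM. STR was close to AMY at 29.5 ± 12.1 CPM. Fold changes against the cortex reached -3.73 ± 0.31 SE in CC and -3.40 ± 0.30 SE in OB on the log2 scale (edgeR adjusted p = 2.29e-21 and 4.47e-19). In the entorhinal and perirhinal cortex (PA) HAPLN4 was called lower (52.7 ± 23.6 CPM; log2 fold change -1.35 ± 0.27 SE, edgeR adjusted p = 2.57e-05), but animals overlapped with the cortex, and the call was lost when the middle frontal gyrus stood in for the whole cortex. The distance between the highest and lowest neural groups, THA and CC, was thus far larger than the spread between animals in either.

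**Figure D1:**
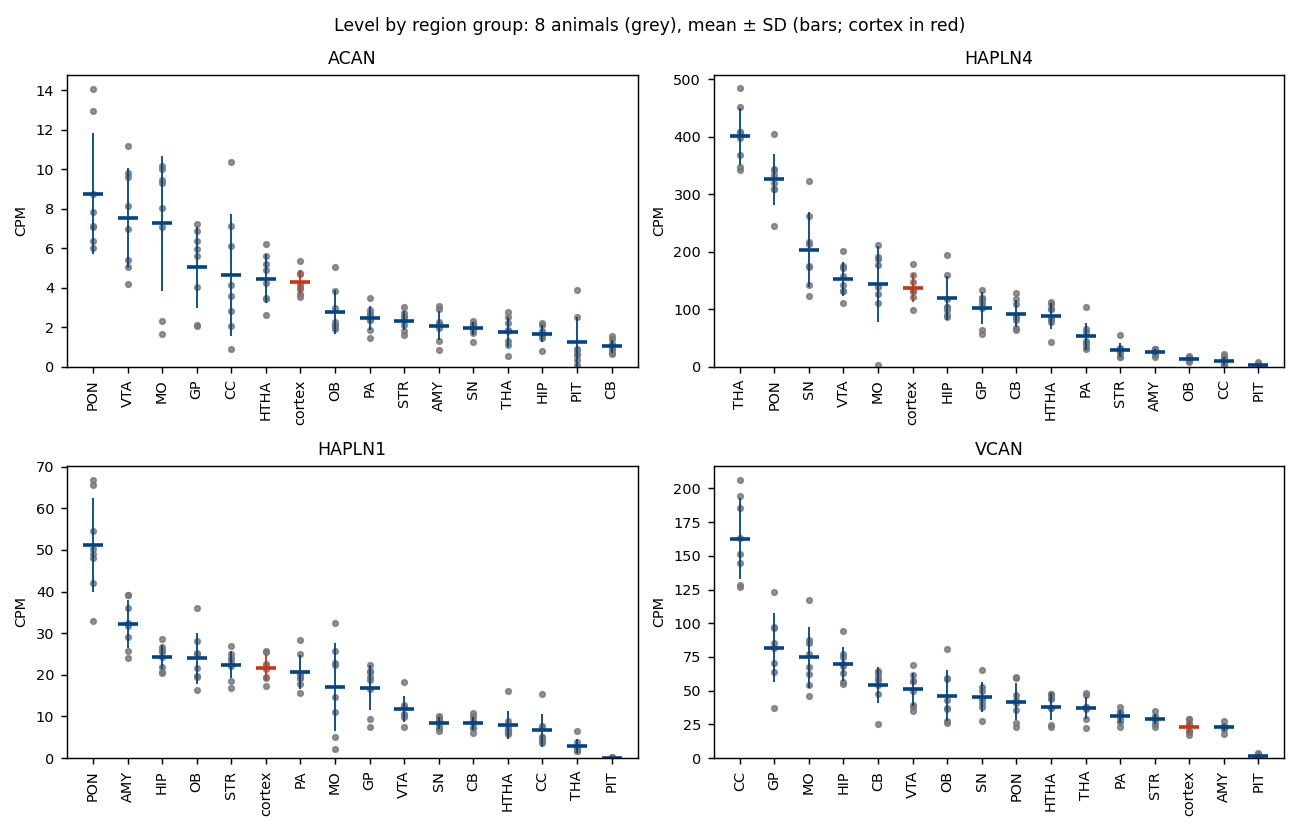
Levels of ACAN, HAPLN4, HAPLN1 and VCAN (CPM, linear axes from 0) in the 16 region groups, ordered by mean; grey points are the 8 animals, bars the mean ± SD, with the cortex in red. HAPLN4 was highest in THA (342 to 484 CPM), HAPLN1 and ACAN in PON and VCAN in CC, and PIT was lowest for HAPLN4, HAPLN1 and VCAN.

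The other link proteins took different orders. HAPLN1, cartilage link protein, was highest in PON in 7 of 8 animals, where the lowest, median and highest values were 33, 49.6 and 66.8 CPM against 17.4, 22 and 25.7 CPM in the cortex. No pontine value overlapped the cortex (log2 fold change 1.24 ± 0.20 SE, edgeR adjusted p = 1.88e-08). THA, the group with the most HAPLN4, held little HAPLN1: 1.69, 2.46 and 6.54 CPM at the lowest, median and highest. All 8 thalamic values lay below the lowest cortical mean of an animal, a 7.45-fold lower level (log2 fold change -2.90 ± 0.24 SE, edgeR adjusted p = 2.23e-21). AMY was the second group for HAPLN1 by mean level (32.1 ± 5.73 CPM), although HAPLN4 there was near its lowest. HAPLN1 was also called lower in CB, CC, HTHA, SN and PIT. In HTHA the library of Rhesus 6 was the highest at 16 CPM, and leaving it out moved the log2 fold change from -1.45 to -1.71. In PIT it had 0 to 2 counts per library, which is within the limit of 3 counts that an undetected gene allows, so the cortical level was at least 62.0-fold higher. HAPLN3, a link protein also made outside the brain, was scarce throughout, from 0.536 ± 0.367 CPM in PIT to 3.52 ± 1.32 CPM in CB, and passed the test only in PIT, where it was lower (log2 fold change -2.05).

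Among the lecticans, ACAN is the core proteoglycan of the nets and is described as the one most restricted to them. RNA of whole tissue pieces does not show that restriction. It was highest by mean in PON, where the lowest, median and highest animals were at 5.99, 7.47 and 14.1 CPM against 3.54, 4.13 and 5.34 CPM in the cortex. PON values did not overlap those of the cortex (8.76 ± 3.06 against 4.27 ± 0.603 CPM; log2 fold change 1.03 ± 0.23 SE, edgeR adjusted p = 3.11e-05). The fold change stood just past the limit of 1, and it fell to 0.96 without Rhesus 11, 0.89 without Rhesus 6 and 0.93 under the detection rule of the study, each time ending the call. PON was the highest group for ACAN in 2 of 8 animals, and VTA (7.53 ± 2.54 CPM) and MO (7.26 ± 3.40 CPM) followed it. In CC, a white matter tract, ACAN was at 4.64 CPM, close to the cortical level, and was not called. ACAN was called lower in CB, HIP, THA, SN, AMY and PIT. In THA it was at 1.77 ± 0.762 CPM (log2 fold change -1.31 ± 0.27 SE, edgeR adjusted p = 1.82e-05), so that THA had the highest HAPLN4 but low ACAN and HAPLN1. The AMY call (log2 fold change -1.03 ± 0.27 SE, edgeR adjusted p = 0.00114) was lost without Rhesus 3, 7 or 10, with DESeq2 size factors and with the middle frontal gyrus as the cortical reference.

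VCAN, a lectican of the looser matrix and of nodes of Ranvier, was highest in CC in 8 of 8 animals. CC values had a lowest, median and highest of 127, 158 and 207 CPM, against 17.4, 22.4 and 28.8 CPM in the cortex. The groups were far apart (163 ± 30.1 against 23.1 ± 4.43 CPM; log2 fold change 2.90 ± 0.16 SE, edgeR adjusted p = 7.53e-33). The globus pallidus (GP, 81.9 ± 25.8 CPM), MO (74.7 ± 22.4 CPM) and HIP (69.9 ± 12.8 CPM) came next, and all 3 were called higher than the cortex. The MO library of Rhesus 6 was the highest there, and without it the log2 fold change of VCAN in MO was 1.61 in place of 1.72. VTA and CB were called higher too, with log2 fold changes of 1.16 and 1.22, and CB was the only one of these 6 groups whose animals overlapped the cortex. In OB and SN VCAN was close to the limit and was called higher by DESeq2. BCAN, a lectican made in the nervous system, varied little by comparison outside PIT. Its means in the groups other than PIT lay between 92.2 CPM in CB and 256 ± 45.1 CPM in CC, with the cortex at 144 ± 15.7 CPM. It was called only in PIT. There it ranged from 0.187 to 5.73 CPM (log2 fold change -6.22 ± 0.19 SE, edgeR adjusted p = 2.81e-56).

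TNR, which is made by oligodendrocytes and some neurons, also had its highest group mean in CC (48.2 ± 12.5 CPM). Its spread between animals was wide: cortical means ran from 14.8 CPM in Rhesus 3 and 16 CPM in Rhesus 4 to 50.9 CPM in Rhesus 11, a 3.45-fold range within one tissue. CC overlapped the cortex (31 ± 13 CPM) but was higher in 8 of 8 animals. The log2 difference of 0.88 ± 0.34 SE (edgeR adjusted p = 0.0145) stayed under the limit of 1. TNR was called only in PIT, where it was lower with overlapping animals (log2 fold change -1.43 ± 0.36 SE, edgeR adjusted p = 2.17e-04). With the middle frontal gyrus in place of the whole cortex it was also called lower in OB, VTA and STR, with log2 fold changes of -1.36, -1.31 and -1.12.

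A call required an adjusted p below 0.05 and a log2 fold change beyond 1, and all 15 comparisons shared the same cortical samples. Over the 105 pairs of gene and region group, 10 were called higher and 22 lower. Over all genes tested, 12.3% of such pairs were higher and 12.1% lower. The largest count was in PIT, a gland with few neurons, where 7 of 7 genes were lower beside 23.2% of all genes. In PON 3 of 7 (ACAN, HAPLN1 and HAPLN4) were higher beside 11.6% of all genes. In THA 1 was higher and 2 were lower, beside 9.75% and 9.84%, and in CC likewise 1 and 2, beside 20.2% and 23.9%. In CB 1 was higher and 2 lower, beside 10.8% and 14.9%, and in HIP 1 higher and 1 lower, beside 6.07% and 6.29%. VCAN alone was higher in GP, MO and VTA, beside 17%, 15.8% and 14.8% of all genes. Lower calls numbered 2 in AMY (4.5% of all genes) and SN (13.5%), and 1 in HTHA (7.61%), OB (9.88%), PA (3.44%) and STR (8.13%). Markers of other cells moved along with the region groups. The summed level of 9 oligodendrocyte markers was 89310 to 121211 CPM in CC, 29960 to 52084 CPM in PON, 12288 to 24707 CPM in THA and 2604 to 3570 CPM in the cortex, and all 9 were called higher in each of the 3 former groups. The sum of 8 neuron markers was 404.5 to 1031 CPM in CC, 9307 to 18831 CPM in PON and 12460 to 13571 CPM in the cortex. No marker on either list was at 0 in every library, and their part in these results was not tested.

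**Figure D2:**
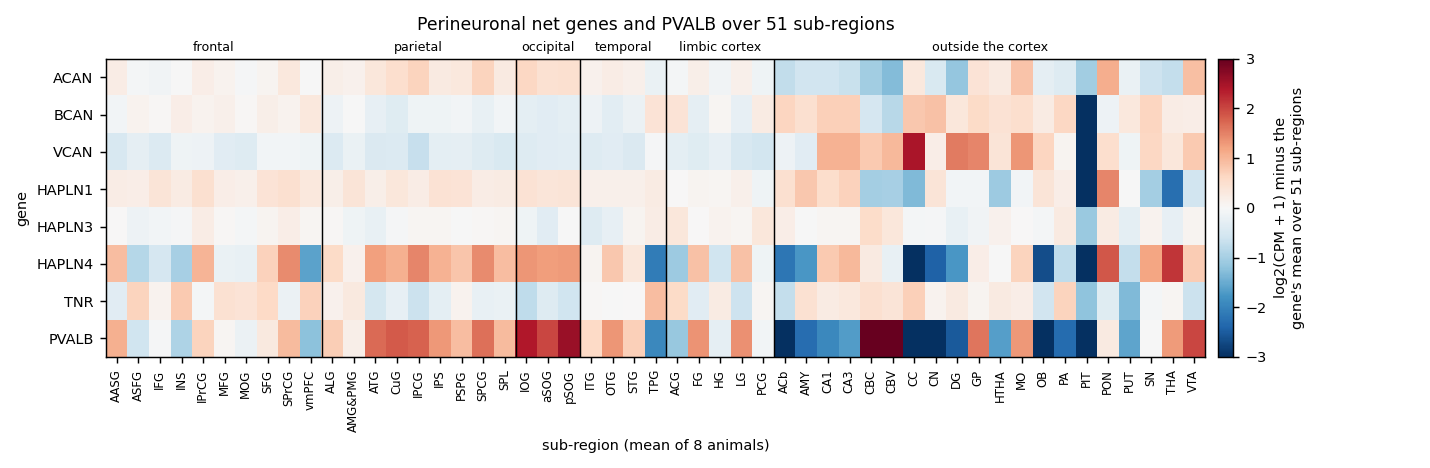
Mean level of each of the 7 net genes and PVALB in the 51 sub-regions (columns, grouped by cortical lobe and outside the cortex), as the difference in log2(CPM + 1) from that gene's mean over sub-regions, with colours ending at -3 and 3. HAPLN4 and PVALB were both low in the temporal polar gyrus and high in the postcentral and occipital gyri. They parted in the cerebellum, where PVALB was highest (267 ± 73.9 CPM) and HAPLN4 was not raised (92.5 ± 23.5 CPM). The cerebellar mean of HAPLN4 was below that of the cortex, but animals overlapped and the difference was not called.

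Neighbours in the order of the 16 region groups by mean level were compared within animals. Of 120 neighbour pairs over the 7 genes and PVALB, 25 had an exact two-sided permutation p below 0.05 over the 8 animals. In 14 of the pairs all 8 animals went one way, which gives the smallest p that 8 pairs allow, 0.0078. After Benjamini-Hochberg adjustment that p became 0.067, so no neighbour pair could pass 0.05 here whatever its size. The 14 pairs included HAPLN4 in THA over PON (401 against 326 CPM) and in PON over SN (326 against 204 CPM). They also included VCAN in CC over GP (163 against 81.9 CPM), HAPLN1 in AMY over HIP (32.1 against 24.3 CPM) and BCAN in CB over PIT (92.2 against 1.88 CPM).

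Within the cortex all 7 genes differed among the 31 sub-regions (edgeR adjusted p from 1.35e-90 for HAPLN4 to 0.00356 for VCAN), as did 77.3% of all genes tested. In a fit without the animal as a block VCAN did not pass and the count was 6 of 7. Over all 51 sub-regions 7 of 7 differed as well, beside 99.8% of all genes. Genes differed more in how much of their variance the sub-regions took. For HAPLN4, 85.4% of the variance of log2 levels over the cortical libraries lay between sub-regions and 7.05% between animals, and that share was above those of 99.6% of 14394 genes. The sub-region share was 53.9% for BCAN, 41.4% for ACAN, 22.2% for HAPLN3, 21.6% for TNR, 20.9% for HAPLN1 and 13.7% for VCAN, where the median gene had 19.5%. HAPLN1, HAPLN3, TNR and VCAN varied more between animals (31%, 32.1%, 33.5% and 38.9%) than between cortical sub-regions, as did the median gene (28.5%).

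The cortical range of HAPLN4 ran from the temporal polar gyrus (TPG) to the inferior postcentral gyrus (IPCG), part of the somatosensory strip. TPG animals were at 15.1 to 29.9 CPM and IPCG animals had a lowest, median and highest of 182, 237 and 331 CPM. IPCG was above TPG in 8 of 8 animals, with means of 249 ± 50.2 and 20.0 ± 4.67 CPM, 12.4-fold apart. The superior postcentral (240 CPM), superior precentral (240 CPM), inferior occipital (226 CPM), posterior superior occipital (218 CPM) and anterior superior occipital (213 CPM) gyri were close to IPCG. The ventromedial prefrontal cortex (28.7 CPM) and the anterior cingular gyrus (41.6 CPM) were close to TPG. ACAN kept the same ends over a narrower range, from 3.00 CPM in TPG to 6.30 CPM in IPCG. BCAN and TNR had TPG at the top instead: BCAN rose from 113 CPM in the cuneus gyrus to 196 CPM in TPG, and TNR from 16.6 CPM in the inferior occipital gyrus to 56.3 CPM in TPG, its highest of all 51 sub-regions. VCAN (17.7 to 28.3 CPM), HAPLN1 (16.5 to 25.5 CPM) and HAPLN3 (1.54 to 3.21 CPM) covered small ranges.

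The occipital lobe, which contains the primary visual cortex, was compared with the mean of the other 4 lobes. In this grouping the occipital lobe held the anterior superior, posterior superior and inferior occipital gyri. The cuneus gyrus was counted in the parietal lobe and the lingual gyrus in the limbic lobe. Lobes were thus compared as labelled, and visual areas were not separated from other cortex. For HAPLN4 the occipital values of the 8 animals ran from 180 to 249 CPM and those of the other lobes from 84.5 to 163 CPM. The groups did not overlap and the occipital value was the higher in 8 of 8 animals (219 ± 20.7 against 122 ± 24.3 CPM; log2 fold change 0.95 ± 0.08 SE, edgeR adjusted p = 1.32e-12). ACAN was higher in 7 of 8 animals with overlapping groups (5.55 ± 1.19 against 4.05 ± 0.548 CPM; log2 fold change 0.49 ± 0.07 SE, edgeR adjusted p = 1.70e-07). HAPLN1 was higher by less (24 against 21 CPM; log2 fold change 0.23 ± 0.07 SE, edgeR adjusted p = 0.00425), in 6 of 8 animals. BCAN was lower in 8 of 8 animals (118 against 147 CPM; log2 fold change -0.28 ± 0.04 SE, edgeR adjusted p = 6.35e-08). TNR was lower as well (19.2 ± 10.9 against 32.3 ± 14 CPM; log2 fold change -0.66 ± 0.18 SE, edgeR adjusted p = 0.00215), and so was HAPLN3 (1.99 against 2.4 CPM; log2 fold change -0.24 ± 0.09 SE, edgeR adjusted p = 0.0213). VCAN did not pass (log2 difference 0.01, edgeR adjusted p = 0.93).

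By count, 3 of 7 were higher and 3 of 7 lower in the occipital lobe, beside 29.4% and 26% of all genes. Calls of HAPLN1, HAPLN3 and TNR were lost in a fit without the animal as a block, leaving 2 higher and 1 lower, and that of HAPLN3 also without Rhesus 3 or Rhesus 4. PVALB rose in the same comparison from 40.8 ± 6.10 to 129 ± 12.4 CPM (log2 fold change 1.77 ± 0.07 SE, edgeR adjusted p = 1.26e-21). All 9 oligodendrocyte markers were higher in the occipital lobe (median log2 fold change 0.52, summed level 3534 to 5365 CPM against 2504 to 3453 CPM), all 4 microglia markers lower, and 4 of 6 markers of oligodendrocyte precursors and 4 of 7 of astrocytes lower. The summed level of 8 neuron markers was higher without overlap (13770 to 15063 CPM against 12272 to 13448 CPM), with 3 of them called higher and 2 lower. Of the 11 markers of parvalbumin interneurons and fast spiking, 5 were higher and 2 lower. Their part in the result was not tested. Parietal cortex was next for HAPLN4 (182 CPM), then the frontal (107 CPM), limbic (102 CPM) and temporal (96.2 CPM) lobes.

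**Figure D3:**
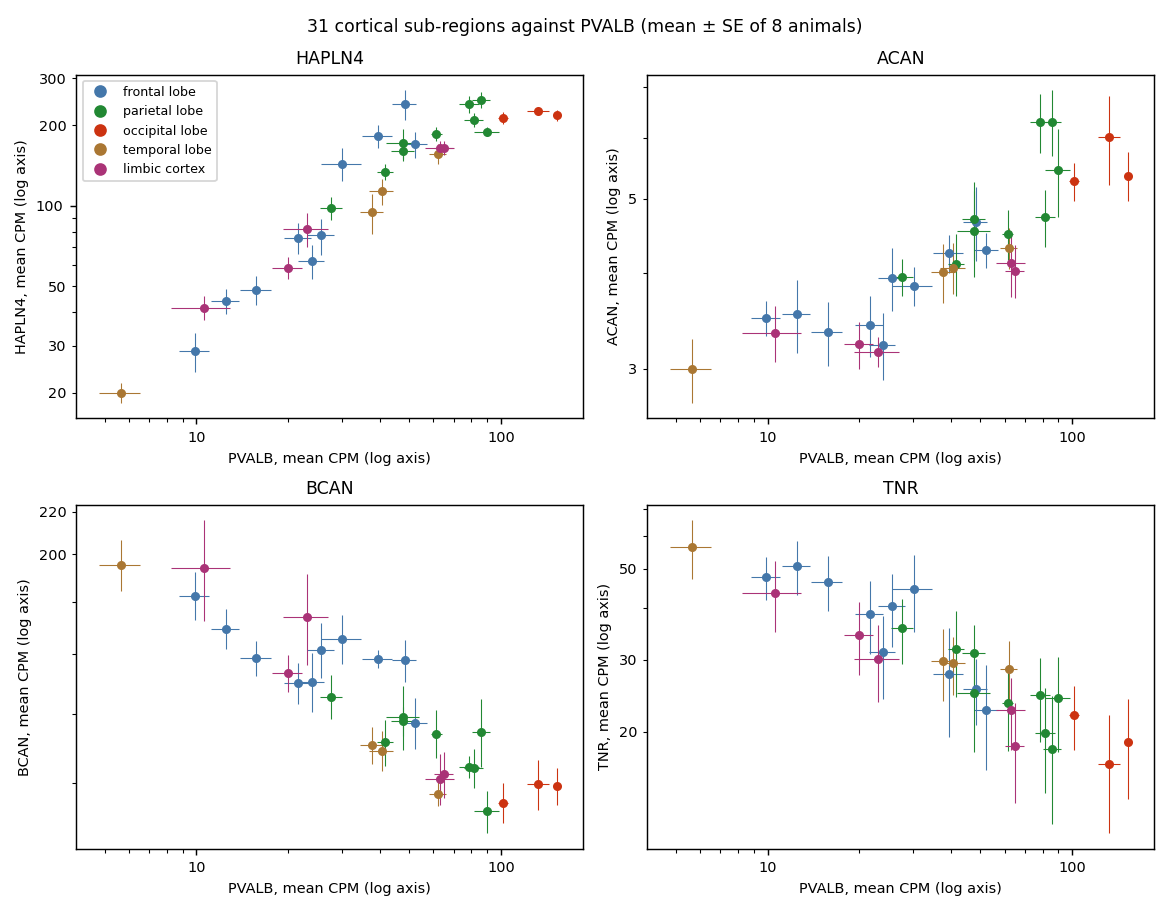
Mean level of HAPLN4, ACAN, BCAN and TNR (CPM, log axes) against that of PVALB in the 31 cortical sub-regions; points are means over 8 animals with the SE on both axes, coloured by lobe. HAPLN4 and ACAN increased with PVALB (Pearson r = 0.943 and 0.874 on the log2 scale), and BCAN and TNR decreased (r = -0.906 and -0.894).

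The relation of each gene to PVALB was described over sub-region means of log2(CPM + 1). Points share the same 8 animals and libraries, so no p is given. Over the 31 cortical sub-regions HAPLN4 followed PVALB most closely, with Pearson r = 0.943 and Spearman rho = 0.927. In the median animal r was 0.91, and it lay between 0.85 and 0.94 over the 8 animals. Of 14768 genes, 98.7% had a lower r with PVALB than HAPLN4, which ranked at 195, where the median of all genes was 0.01. ACAN had r = 0.874 and rho = 0.912, with a rank of 947 and within-animal values of 0.30 to 0.80. Values for the other link proteins were weak, at r = 0.303 for HAPLN1 and -0.406 for HAPLN3.

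BCAN and TNR went against PVALB across the cortex. BCAN had r = -0.906 and rho = -0.879, and r was negative in 8 of 8 animals, from -0.92 to -0.51. TNR had r = -0.894 and rho = -0.873, from -0.79 to -0.50 within animals. VCAN had r = -0.484. When TPG and the anterior cingular gyrus, the sub-regions farthest from the median of PVALB, were left out, r was 0.920 for HAPLN4, 0.863 for ACAN, -0.870 for BCAN and -0.885 for TNR, so the relations did not rest on those sub-regions. The match of HAPLN4 with PVALB was not complete: the superior precentral gyrus, in the motor strip, had HAPLN4 at 240 CPM with PVALB at 48.3 CPM, while the posterior superior occipital gyrus had HAPLN4 at 218 CPM with PVALB at 153 CPM.

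Other marker lists ran along the same cortical axis. The mean of 9 oligodendrocyte markers had r = 0.965 with HAPLN4, 0.893 with PVALB and 0.775 with ACAN, and -0.770 with BCAN. Oligodendrocyte precursor markers had r = 0.896 with BCAN and -0.880 with PVALB, microglia markers 0.933 with BCAN and -0.921 with PVALB, and astrocyte markers 0.793 with BCAN. For TNR, r was -0.830 with oligodendrocyte, 0.826 with precursor, 0.809 with microglia and 0.645 with astrocyte markers. Markers of fast-spiking interneurons gave r = 0.593 with HAPLN4 and 0.627 with ACAN, and the 10 of them other than PVALB gave r = 0.352 with PVALB itself. Neuron markers gave 0.274 with HAPLN4 and 0.208 with ACAN. The part of these cell types in the relation to PVALB was not tested.

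**Figure D4:**
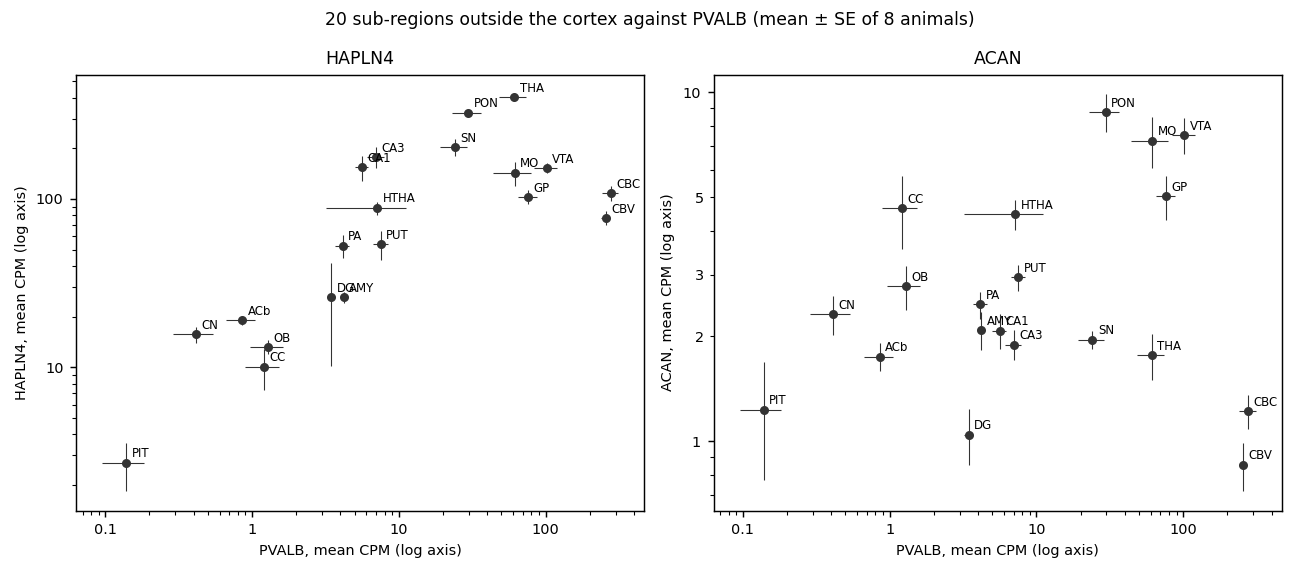
Mean level of HAPLN4 and ACAN (CPM, log axes) against that of PVALB in the 20 sub-regions outside the cortex, each named; points are means over 8 animals with the SE on both axes. HAPLN4 increased with PVALB (r = 0.705 on the log2 scale) and ACAN had r = 0.133, with the cerebellar cortex (CBC) and vermis (CBV) to the right of all other points.

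Outside the cortex, over 20 sub-regions, the order was different. HAPLN4 again had a positive r with PVALB (r = 0.705, rho = 0.731, 0.57 to 0.76 within animals) and a rank of 194 among all genes. For ACAN r was 0.133, and it reached 0.558 without the cerebellar cortex and cerebellum vermis, where PVALB is also made by Purkinje cells. Without those 2 sub-regions HAPLN4 had r = 0.812. Over all 20 sub-regions ACAN had r = 0.714 with oligodendrocyte markers and 0.077 with markers of fast-spiking interneurons. The part of these cell types was not tested. For BCAN the r with PVALB turned on the pituitarium, with r = 0.1 over all 20 sub-regions and -0.726 without it. HAPLN1 moved in the same way, from -0.054 to -0.402. HAPLN3 and TNR, negative in the cortex, had r = 0.448 and 0.210 here, and 0.244 and 0.030 without the cerebellar sub-regions. For VCAN r was 0.332, and 0.131 without the pituitarium.

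Sub-regions within a structure also differed. The putamen (PUT) and caudate nucleus (CN) are both dorsal striatum, yet HAPLN4 was at 18.5 to 116 CPM in PUT and 11.3 to 26.7 CPM in CN. PUT was the higher in 8 of 8 animals (53.9 ± 30.3 against 15.7 ± 4.79 CPM; log2 fold change 1.68 ± 0.15 SE, edgeR adjusted p = 8.83e-07), although the groups overlapped. PVALB rose with it, from 0 to 0.924 CPM in CN to 3.88 to 11.1 CPM in PUT, without overlap (log2 fold change 4.15 ± 0.27 SE, edgeR adjusted p = 4.82e-08). The CN levels were near the detection limit, so the size of that fold change is uncertain. TNR went the other way, 31.3 CPM in CN against 11.0 CPM in PUT (log2 fold change -1.58 ± 0.20 SE, edgeR adjusted p = 3.08e-05), and BCAN, VCAN and HAPLN1 were lower in PUT by smaller amounts. The VCAN and HAPLN1 calls were lost in the fit without the animal as a block, and that of HAPLN1 also without Rhesus 2, 3, 7, 8 or 10. Altogether 5 of 7 genes were called between PUT and CN, beside 38.9% of all genes. All 9 oligodendrocyte markers were higher in PUT (median log2 fold change 1.56), and their part in the result was not tested. The accumbens nucleus also had less TNR than CN (17.1 against 31.3 CPM; log2 fold change -1.10 ± 0.36 SE, edgeR adjusted p = 0.0383). BCAN and VCAN were lower there and HAPLN4 higher (19 against 15.7 CPM), the last call being lost without Rhesus 3, 4, 6, 7, 10 or 11. The TNR call was lost without Rhesus 3, 4, 7, 8 or 11, and those of TNR, BCAN and HAPLN4 in the fit without the animal as a block. That made 4 of 7, beside 30.2% of all genes.

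GP, which lies next to PUT, had more VCAN than PUT without overlap (81.9 against 26.7 CPM; log2 fold change 1.59 ± 0.12 SE, edgeR adjusted p = 1.58e-07). TNR (30.5 against 11.0 CPM), HAPLN4 (103 against 53.9 CPM) and ACAN (5.04 against 2.95 CPM) were also higher in GP, with log2 fold changes of 1.33, 1.07 and 0.75. BCAN was called with a log2 fold change of 0.29 (lost without Rhesus 7 and in the fit without the animal as a block), which made 5 of 7, beside 67.1% of all genes. PVALB was at 76.2 CPM in GP and 7.54 CPM in PUT, without overlap. All 9 oligodendrocyte markers (median log2 fold change 1.72), all 4 microglia markers and 5 of 7 astrocyte markers were higher in GP, and 7 of 8 neuron markers were lower. The summed oligodendrocyte markers were at 48113 to 104001 CPM in GP against 7661 to 12789 CPM in STR. That range averages PUT with CN and the accumbens nucleus, and MBP alone was at 9904 CPM in PUT and 2834 CPM in CN. The part of these markers in the result was not tested.

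In the hippocampus, HAPLN4 set DG apart from CA1. In CA3 HAPLN4 was at 82.9 to 275 CPM, and DG was not tested against CA3. Apart from the 137 CPM of Rhesus 2, DG was at 7.80 to 13.7 CPM, while CA1 was at 63.5 to 301 CPM. DG was lower than CA1 in 7 of 8 animals, Rhesus 2 being the exception (log2 fold change -3.38 ± 0.53 SE, edgeR adjusted p = 4.10e-04), and the fold change was -3.94 without Rhesus 2. ACAN (1.05 against 2.07 CPM), HAPLN1 (16.9 against 26.2 CPM) and BCAN (186 against 241 CPM) were lower in DG too, with log2 fold changes of -0.92, -0.63 and -0.36 (-0.94, -0.74 and -0.43 without Rhesus 2). VCAN was the exception, at 87.6 CPM in DG and 60.8 CPM in CA1 (log2 fold change 0.53, edgeR adjusted p = 0.00242, and 0.62 without Rhesus 2). These calls made 5 of 7, beside 31.4% of all genes. Between CA3 and CA1 edgeR called 0 of 7, beside 0.00692% of all genes. All 9 oligodendrocyte markers were lower in DG (median log2 fold change -1.27), and their part in the result was not tested.

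**Figure D5:**
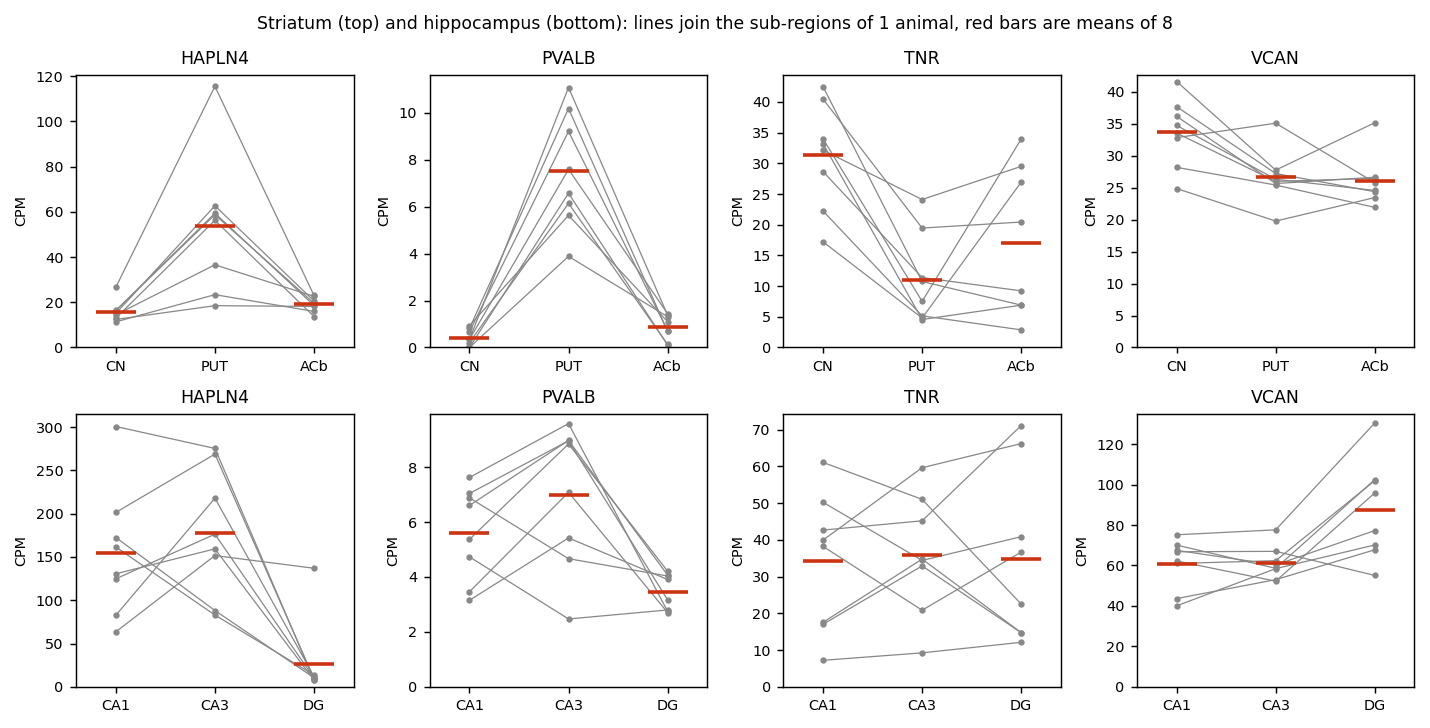
Levels of HAPLN4, PVALB, TNR and VCAN (CPM, linear axes from 0) in the striatum (CN, PUT and accumbens nucleus, ACb; top) and hippocampus (CA1, CA3 and DG; bottom); lines join the sub-regions of 1 animal and red bars are means of 8 animals. HAPLN4 was higher in PUT than CN in 8 of 8 animals, and in DG it was at 7.80 to 13.7 CPM except for Rhesus 2 at 137 CPM.

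SN and VTA lie side by side in the midbrain, but ACAN was at 1.28 to 2.31 CPM in SN and 4.18 to 11.2 CPM in VTA. The groups did not overlap (1.95 ± 0.332 against 7.53 ± 2.54 CPM; log2 fold change -1.91 ± 0.17 SE, edgeR adjusted p = 1.57e-06). PVALB was likewise lower in SN (24.1 against 102 CPM; log2 fold change -2.12, edgeR adjusted p = 2.61e-08). HAPLN1 was lower in SN (8.44 against 11.7 CPM), whereas BCAN (228 against 169 CPM) and HAPLN4 (204 against 153 CPM) were higher. The HAPLN4 call was lost in the fit without the animal as a block and without Rhesus 4, 6, 7, 8, 10 or 11, and the HAPLN1 call without Rhesus 10. In this comparison 4 of 7 were called, beside 33.3% of all genes. All 9 oligodendrocyte markers were lower in SN and, as given above, the libraries labelled VTA had little TH. The part of either in the result was not tested. Between the cerebellum vermis and the cerebellar cortex only HAPLN4 was called, lower in the vermis in 8 of 8 animals (77.1 against 108 CPM; log2 fold change -0.47 ± 0.10 SE, edgeR adjusted p = 0.0453), beside 0.954% of all genes. That call was lost in the fit without the animal and without Rhesus 2, 3, 6, 7, 8, 10 or 11.

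Age and sex were compared with 4 animals against 4, which limits the calls that could be made. Of 109 pairs of gene and region group tested, edgeR called 0 for age and 0 for sex at an adjusted p below 0.1 and a log2 fold change beyond 1, beside 0.0206% and 0.106% of all pairs. Unadjusted p fell below 0.05 in 12 pairs for age (11%, against 5.98% over all genes) and in 13 for sex (11.9%, against 3.69%). The same animals entered every region group, so these pairs were not independent and the shares cannot be read as separate findings. DESeq2 called 2 for age (ACAN in CC and BCAN in PIT) and 1 for sex (TNR in PIT). Without Rhesus 7, edgeR called TNR in PA and THA for age and BCAN, HAPLN4 and TNR in PIT for sex. The smallest unadjusted p for age was that of HAPLN4 in SN. Its values did not overlap, at 154 ± 25.2 CPM in the mid-aged and 254 ± 50.7 CPM in the young animals (n = 4 each), and the edgeR adjusted p was 0.371. HAPLN1 in the cortex was at 19.4 ± 1.67 CPM in the mid-aged and 24 ± 1.81 CPM in the young animals (log2 fold change -0.30, edgeR adjusted p = 0.721), also without overlap.

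Genes that build, cut or bind the same matrix were read from 5 lists. Hyaluronan genes were higher than the cortex in 31 of 150 pairs of gene and region group (20.7%) and lower in 21 (14%), beside 12.3% and 12.1% over all genes. Their largest increases were those of CD44, a hyaluronan receptor, with log2 fold changes of 5.77 ± 0.31 SE in CC and 4.28 ± 0.30 SE in PON. Matrix proteases and their inhibitors were higher in 55 of 180 pairs (30.6%) and lower in 32 (17.8%), beside the same shares, led by ADAMTS4, an aggrecanase, at 5.23 ± 0.22 SE in CC, 3.47 ± 0.20 SE in PON and 2.45 ± 0.20 SE in THA. Genes of chondroitin sulphate synthesis were higher in 14 of 255 pairs (5.49%, beside 12.3%) and lower in 40 (15.7%, beside 12.1%), with the synthase gene CHSY3 lowest in CC (-4.14 ± 0.22 SE) and PON (-3.80 ± 0.22 SE).

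Of the other net and matrix components, 51 of 195 pairs were higher (26.2%, beside 12.3% over all genes) and 63 lower (32.3%, beside 12.1%). TNXB, a tenascin of connective tissue, had a log2 fold change of 3.85 in CC, while the neuronal pentraxin gene NPTX2 had -9.29 in PON and NPTX1 had -7.68 in THA. Receptors for chondroitin sulphate and Nogo were lower in 39 of 105 pairs (37.1%, beside 12.1% of all genes), and in none were they higher. RTN4RL1 in PON was at -6.05 ± 0.35 SE and RTN4RL2 in CC at -5.71 ± 0.46 SE. In the occipital lobe the 5 lists had 2 of 9, 3 of 17, 3 of 13, 4 of 13 and 1 of 7 genes higher and 2, 7, 5, 6 and 4 lower, in the order hyaluronan, chondroitin sulphate synthesis, proteases, other components and receptors. Over all genes 29.4% were higher and 26% lower. The shares of the lists ran from 14.3% to 30.8% higher and from 22.2% to 57.1% lower. The lead genes there were TNC, the gene of tenascin-C, at -1.93 ± 0.12 SE, the protease inhibitor gene TIMP2 at -1.24 ± 0.07 SE and CEMIP, a hyaluronan-degrading protein, at 0.86 ± 0.10 SE.

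The genes whose profile over the 51 sub-regions was most like that of each net gene were sought among 12449 genes, by Pearson r of log2(CPM + 1). HAPLN4 was closest to PHOSPHO1 (r = 0.896), PANX2 (0.882) and SLC25A43 (0.879). BCAN was closest to MLC1 (0.970), an astrocyte membrane protein, NLGN3 (0.959) and TTYH1 (0.947), and VCAN to ADD3 (0.928), ELOVL2 (0.918) and DBI (0.915). HAPLN1 was closest to KCNN1 (0.840) and TNR to SSH1 (0.848), whereas the best matches of ACAN (FAM98C, 0.794) and HAPLN3 (MAP7D1, 0.756) were weaker. KCNC1, the gene of a fast potassium channel, was among the 3 genes closest to PVALB (0.871). No net gene was among the 3 closest genes of another.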

How the data were processed

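Gene counts were deposited by the authors as raw read counts for RNA-seq libraries of 51 sub-regions in 8 animals. They used FastQC 0.11.4, Trim Galore 0.4.4, HISAT2 2.0.5 on Mmul 8.0.1 with the Ensembl 91 annotation, and HTSeq 0.6.1. Strand and overlap settings are not given in the sources used here, so reads of overlapping or antisense genes could be shared. The deposited transcript assembly holds start and end coordinates and no gene names (unit other), and was used only for NCAN. The 8 midbrain libraries and the chromatin accessibility libraries were not analysed here.

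Counts were summed per animal over the sub-regions of a region group or lobe and tested with edgeR 4.0.16 (R 4.3.3, limma 3.58.1) by the quasi-likelihood F test over all genes passing filterByExpr, with TMM scaling, Benjamini-Hochberg adjustment and the animal as a block, as in the model of the study. For age and sex each region group was fitted separately with the other factor as covariate. Calls needed an adjusted p below 0.05, with a log2 fold change beyond 1 against the cortex, and below 0.1 with a log2 fold change beyond 1 for age and sex. Levels are CPM with TMM library sizes. Profiles used a pseudocount of 1 and, for similar genes, a mean of at least 1 CPM, taking the 3 highest r. The limit of 3 counts covers counting error only. Same-numbered samples came from the same animal. In PUT and CN their deviations had a median r of 0.634, against -0.0953 between other animals, the highest median of the pairs checked. The lowest median was that of the inferior occipital and middle frontal gyri, 0.261 against -0.0443. There the lowest same-animal r was -0.314.

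Named genes were the members, PVALB, their similar genes and, per matrix list, the called genes with the largest fold change in each direction. One similar gene is not reported here. Members and lists were chosen with earlier results of these data known. Alternatives were DESeq2 1.42.0, its size factors, another filter, no block, another cortical reference, another pseudocount and leaving out each animal. The edgeR scripts were tested on simulated data. Python 3.11.15, numpy 2.4.6, pandas 2.3.3, scipy 1.17.1 and matplotlib 3.10.9 were used for levels, profiles and plots.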

Additional observations from a re-analysis of the deposited data

Results flagged for a closer look

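In each of 112 sets of 8 animals (a gene in a region group), the gap between the most extreme animal and its neighbour was divided by the whole range and held against Dixon's limit. Chance alone would exceed the limit in about 5.6 sets, and 7 exceeded it. HAPLN4 in MO had the largest ratio, 0.833, with Rhesus 6 at 3.74 CPM and the others at 112 to 211 CPM. HAPLN4 in HTHA had a ratio of 0.599, with Rhesus 2 lowest at 43.8 CPM and the others at 77.2 to 113 CPM. HAPLN1 in HTHA had a ratio of 0.590, with Rhesus 6 highest at 16 CPM and the others at 5.68 to 8.80 CPM. In CB, Rhesus 4 was lowest for both TNR (ratio 0.793, 10.3 CPM against 34.9 to 47.5 CPM) and VCAN (ratio 0.666, 25.1 CPM against 47.3 to 64.7 CPM). BCAN in GP had a ratio of 0.658, with Rhesus 2 lowest at 139 CPM and the others at 205 to 250 CPM. BCAN in SN had a ratio of 0.571, with Rhesus 4 highest at 322 CPM and the others at 196 to 243 CPM.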

How the results depend on the processing

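The fit without the animal as a replicate block, set beside the paired fit, lowered the calls in the occipital lobe from 3 to 1 lower and those within structures from 14 to 9 lower, and moved no other count of calls by over 1.5 times. A log2 limit of 2 in place of 1 left 1 higher and 11 lower calls against the cortex, by construction. DESeq2 called 2 pairs for age and 1 for sex, and edgeR without Rhesus 7 called 2 and 3, against 0 each. Outside the cortex the r with PVALB moved for BCAN to 0.231 (pseudocount 0.1), 0.269 (without CBC and CBV) and -0.726 (without PIT), for HAPLN1 to 0.146, 0.065 and -0.402 in the same order, for ACAN to 0.558 and HAPLN3 to 0.244 and HAPLN4 to 0.812 without CBC and CBV, and for VCAN to 0.131 without PIT. The cause was not tested. Leaving out each animal in turn gave 9 to 12 higher and 21 to 24 lower calls against the cortex, 3 to 3 higher and 2 to 3 lower in the occipital lobe, 7 to 10 higher and 11 to 14 lower within structures, 0 to 2 for age and 0 to 3 for sex. Over the same omissions r with PVALB in the cortex ran from 0.933 to 0.949 for HAPLN4, 0.849 to 0.884 for ACAN, -0.910 to -0.883 for BCAN and -0.906 to -0.843 for TNR. Of 7726 values of named genes under alternatives, 7570 kept their side of the threshold, 117 lost and 39 gained a call, and 342 changed sign without being called. Leaving out the HTHA or the MO library of Rhesus 6, chosen after seeing the data, moved no count of calls by over 1.5 times. ACAN and HAPLN3, with median counts of 38 and 25 per library, were limited by depth.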
